A study of Homo sapiens with 9 samples.

Results

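The genes described here are 9 members of the HLA class I antigen presentation pathway: the class I heavy chains HLA-B, HLA-C, HLA-E and HLA-F, the light chain B2M, the peptide transporter subunits TAP1 and TAP2, tapasin (TAPBP) and the transactivator NLRC5. They were taken from a list of symbols, and all 9 were found among the 26625 genes in the count tables. The data are RNA sequencing libraries made by CLT-seq, a method in which oligo(dT) primers carrying an adaptor start reverse transcription on poly(A) tails. Total RNA came from cultures of 2 human cell lines whose genotype is labelled WT and for which the labels name no treatment. HEK293T is a transformed embryonic kidney line, grown in DMEM high glucose with serum, and A549 is a lung carcinoma line, grown in F-12K with serum. Of the 9 libraries in the series, the 7 with gene counts used here are 1 of HEK293T with each of 6 primers and 1 of A549 with T12. The unanchored primers T12, T18 and T30 end in 12, 18 or 30 T. The anchored primers T18V, T18VN and T18VNN add 1, 2 or 3 bases after 18 T, the first of which is not T.

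Class I molecules are displayed on the surface of nearly all nucleated cells and carry short peptides from inside the cell to cytotoxic T cells and natural killer cells. The heavy chain pairs with beta-2 microglobulin in the endoplasmic reticulum, where the TAP1-TAP2 transporter delivers peptides cut by the proteasome and tapasin holds the empty heavy chain next to the transporter until a peptide binds. NLRC5 switches on most of these genes together through the promoter elements they share, and interferon gamma raises them through interferon regulatory factors.

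The primers bind at the poly(A) tail, so the 3′ ends of the mRNAs are shown for the members that the results turn on. Each is the last 30 bases of the GENCODE release 29 transcript on GRCh38, with the poly(A) signal AATAAA in capitals. The ends lie at chr6:31353872-31353901, minus strand, for HLA-B, at chr6:31268749-31268778, minus strand, for HLA-C, at chr15:44718116-44718145, plus strand, for B2M, at chr6:32845209-32845238, minus strand, for TAP1, and at chr16:57083495-57083524, plus strand, for NLRC5.
HLA-B mRNA end: agcaAATAAAgacctgagaaccttccagaa
HLA-C mRNA end: agcaAATAAAgacctgagaaccttccagaa
B2M mRNA end: tccacaagttaAATAAAtcataaaacttga
TAP1 mRNA end: tgatatttatAATAAAattggtgttttgta
NLRC5 mRNA end: tgatcAATAAAcacaatggtattccacgtc
HLA-B and HLA-C had the same 30 bases at this end, and 94 of their last 100 bases were identical. Over the whole mRNA, 1419 of 1551 aligned columns (91.5%) were identical between them. Between HLA-B and HLA-E, 1311 of 2612 columns (50.2%) were identical. Gaps count as columns, and the HLA-E transcript is longer (2601 bases against 1547 for HLA-B). This lower share therefore reflects length as well as sequence, and does not show that reads of HLA-E and HLA-B could not be confused. How reads that match more than 1 gene or copy were counted is not given in the sources used here, so the division of reads between HLA-B and HLA-C is uncertain. The ends of HLA-E and TAP2 held neither AATAAA nor ATTAAA in their last 30 bases. An end was found for 8 of the 9 members, and none was found for TAPBP.

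Promoters are shown for HLA-C, B2M, TAP1 and TAPBP, which had more reads in A549, and for HLA-B, which had fewer. Each run of 300 bases (250 before and 50 after the start of the gene) is the RefSeq sequence of GRCh38.p14, not that of the cell lines. Capitals mark matches on either strand to AANNGAAA, the core bound by interferon regulatory factors, to an NF-kappaB-like motif (GGG, 2 bases of any kind, TT, 1 of any kind, CC), to CCAAT, bound by NF-Y, and to TGACG, part of the element bound by CREB and ATF1. The promoters lie at chr6:31357130-31357429, minus strand, for HLA-B, at chr6:31272043-31272342, minus strand, for HLA-C, at chr15:44711267-44711566, plus strand, for B2M, at chr6:32853655-32853954, minus strand, for TAP1, and at chr6:33314029-33314328, minus strand, for TAPBP.
HLA-B promoter: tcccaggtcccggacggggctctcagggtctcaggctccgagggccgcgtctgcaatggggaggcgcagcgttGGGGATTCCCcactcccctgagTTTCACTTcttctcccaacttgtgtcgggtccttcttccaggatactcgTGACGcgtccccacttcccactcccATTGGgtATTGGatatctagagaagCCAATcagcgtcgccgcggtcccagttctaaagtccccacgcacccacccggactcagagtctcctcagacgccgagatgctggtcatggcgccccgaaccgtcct
HLA-C promoter: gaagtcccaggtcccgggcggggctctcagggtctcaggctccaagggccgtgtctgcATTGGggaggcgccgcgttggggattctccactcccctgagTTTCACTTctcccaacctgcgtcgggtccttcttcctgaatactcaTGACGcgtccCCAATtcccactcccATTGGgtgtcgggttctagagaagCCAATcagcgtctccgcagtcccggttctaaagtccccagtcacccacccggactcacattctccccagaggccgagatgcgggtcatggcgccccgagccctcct
B2M promoter: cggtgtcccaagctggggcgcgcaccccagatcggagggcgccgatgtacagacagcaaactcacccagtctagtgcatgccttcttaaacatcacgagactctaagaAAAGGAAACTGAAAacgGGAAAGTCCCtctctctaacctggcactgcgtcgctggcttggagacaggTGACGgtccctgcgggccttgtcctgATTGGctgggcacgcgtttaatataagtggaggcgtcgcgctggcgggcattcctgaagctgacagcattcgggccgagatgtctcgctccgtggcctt
TAP1 promoter: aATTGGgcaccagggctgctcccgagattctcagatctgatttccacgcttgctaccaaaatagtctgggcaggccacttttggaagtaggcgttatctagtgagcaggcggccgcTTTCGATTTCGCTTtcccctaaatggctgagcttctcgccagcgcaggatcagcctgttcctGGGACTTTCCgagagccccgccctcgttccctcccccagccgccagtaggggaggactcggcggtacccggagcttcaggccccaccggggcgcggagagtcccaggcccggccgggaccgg
TAPBP promoter: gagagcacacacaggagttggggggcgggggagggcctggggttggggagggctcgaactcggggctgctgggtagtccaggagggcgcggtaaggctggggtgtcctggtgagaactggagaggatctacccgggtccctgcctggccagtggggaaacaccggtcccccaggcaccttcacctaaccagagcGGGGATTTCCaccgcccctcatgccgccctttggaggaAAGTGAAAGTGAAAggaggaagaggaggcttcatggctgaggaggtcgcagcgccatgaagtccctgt
RefSeq promoters were matched for 7 of the 9 members, all except HLA-E and NLRC5. AANNGAAA was present in 7 of 7, and in 22.8% of 35116 promoters of this length. The NF-kappaB-like motif was present in 4 of 7 (HLA-B, B2M, TAP1 and TAPBP), against 5.68% of promoters. CCAAT was present in 5 of 7 against 34.6%, and TGACG in 4 of 7 against 24.6%. The motifs were chosen for these genes, and the HLA-B and HLA-C promoters are alike over long stretches. These counts are therefore no test of enrichment. The 2 matches to AANNGAAA in B2M, TAP1 and TAPBP lie next to or overlap one another and run together in capitals.

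Library totals recovered from the tables were 7491993 to 25578543 reads, of which 1505089 (A549) to 5234488 (HEK293T T18) were on genes. Levels are given as CPM (read counts scaled to a common total of reads on genes), and 3 reads, taken as the detection floor, were worth 0.573 to 1.34 CPM in HEK293T and 1.99 CPM in A549. One gene, ZNF557, took 7.15% of the gene reads of T18, and in T18VNN the coverage over the first 20 percentiles of transcripts was 0.845 times that over the last 20, against 0.0403 to 0.0533 in the 4 other libraries whose coverage was used. The 5 markers chosen for A549 summed to 12884 CPM in A549 and to at most 0.353 CPM in any HEK293T library, and the 4 chosen for HEK293T to 3372 to 4896 CPM in HEK293T and 1.33 CPM in A549. Among 4 leukocyte markers, PTPRC, CD3E and LYZ had 0 reads in A549, and CD14 stood at 41.9 CPM there and at 0 to 1.76 CPM in HEK293T, whose part in the results was not tested. In bulk RNA, fewer cells with a transcript and less of it per cell cannot be told apart.

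Of the heavy chains, HLA-B and HLA-C had the highest levels per transcript length (FPKM) in all 7 libraries. By CPM, however, HLA-E (243) was above HLA-B in A549. HLA-B stood at 351, 313 and 258 CPM in HEK293T with the unanchored T12, T18 and T30 primers, at 620.2, 479 and 594 CPM with the anchored T18V, T18VN and T18VNN primers, and at 151 CPM in A549. A549 was below all 6 HEK293T libraries, and the anchored libraries were all above the unanchored ones. HLA-C stood at 499, 349 and 395 CPM with the unanchored primers, at 632, 461 and 557 CPM with the anchored ones, and at 1627 CPM in A549. For this gene A549 was above all 6 HEK293T libraries, and the primer classes overlapped. With the same T12 primer, A549 had 2.32-fold less HLA-B than HEK293T (95% exact counting interval 2.01 to 2.68) and 3.26-fold more HLA-C (interval 3.06 to 3.47). The intervals describe counting error alone: the labels name no molecular identifiers, so copies made by PCR may count as separate reads, and each line had 1 library.

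**Figure D1:**
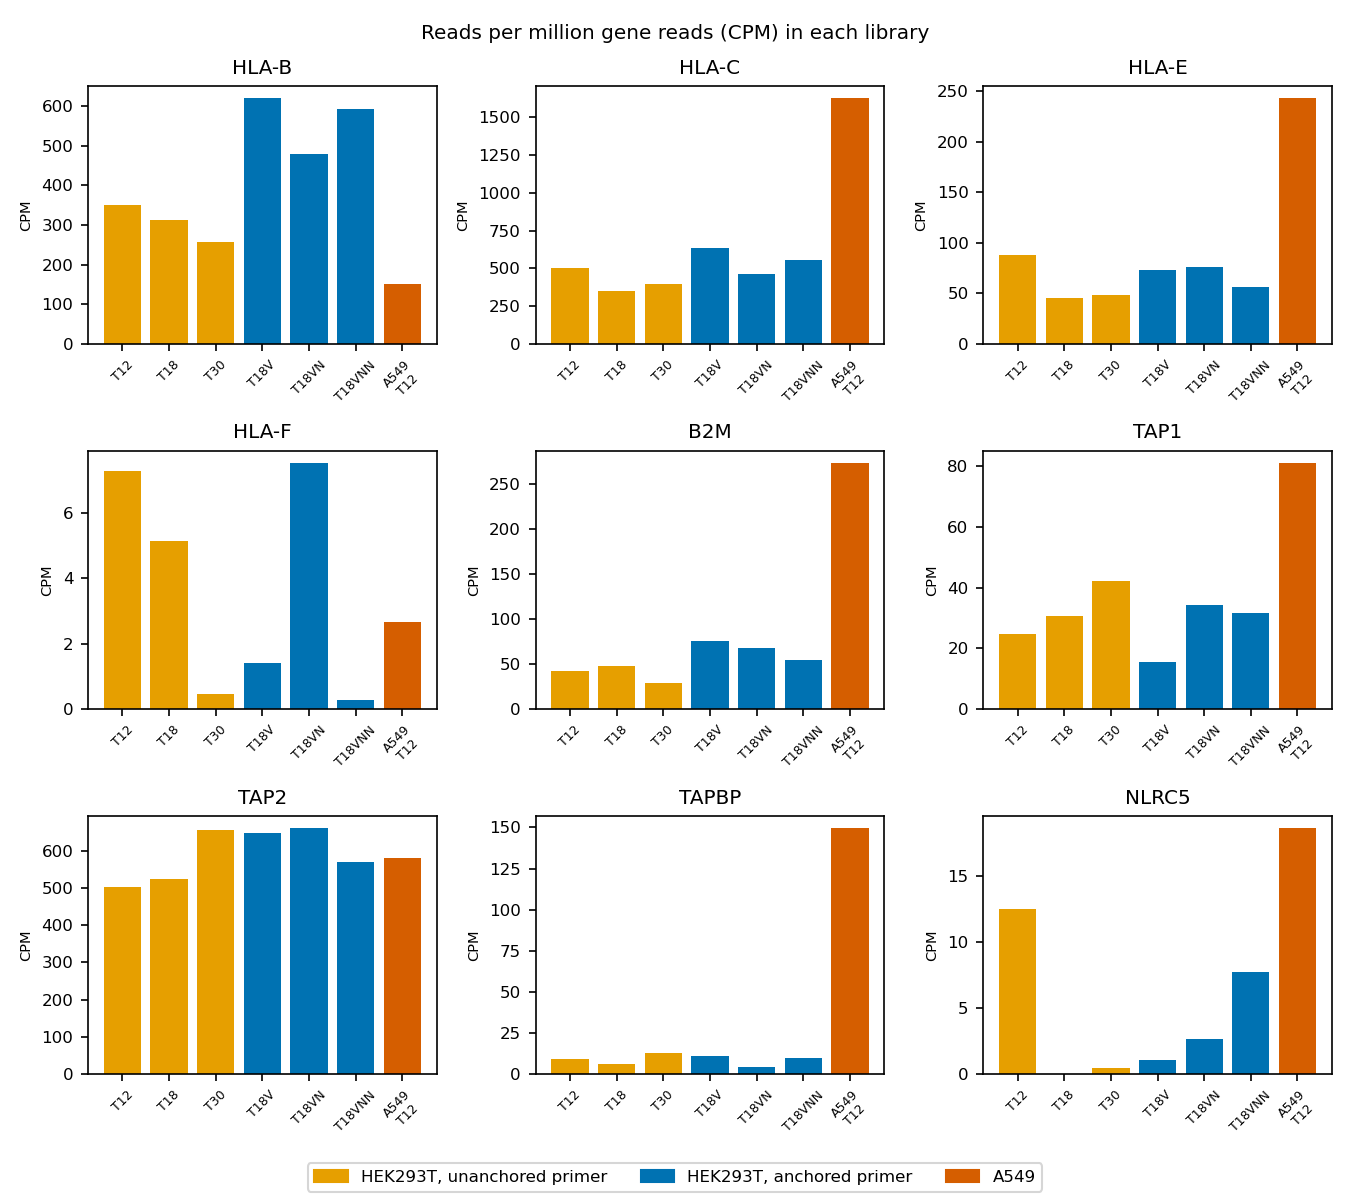
Read counts scaled to the gene reads of each library (CPM, y axis, from 0, own scale in each panel) of the 9 members in the 7 libraries (x axis), 1 bar per library, coloured for HEK293T with unanchored primers, HEK293T with anchored primers and A549. The A549 bar is above the 6 HEK293T bars for HLA-C, HLA-E, B2M, TAP1, TAPBP and NLRC5 and below them for HLA-B.

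There were 0.938 to 1.53 HLA-C reads per HLA-B read across the 6 HEK293T libraries and 10.7 in A549. The sum of both genes does not depend on how reads were divided between them, unless reads were counted for both. Reads that aligned to no copy, or were counted on another gene, would still change it, and this was not tested. The summed level was 850.2 CPM in HEK293T T12 and 1779 CPM in A549. The sum was 2.09-fold higher in A549 (interval 1.98 to 2.21), and 653 to 1252 CPM across the 6 HEK293T libraries. Adding HLA-E and HLA-F gave 946 CPM in HEK293T T12 and 2024 CPM in A549, a 2.14-fold difference (interval 2.04 to 2.25).

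HLA-E, which presents leader peptides of other class I chains to natural killer cell receptors, stood at 88.4, 45.7 and 48.8 CPM with the unanchored primers, at 73.03, 75.8 and 55.9 CPM with the anchored ones and at 243 CPM in A549. The A549 level was above all 6 HEK293T libraries and 2.75-fold that of HEK293T T12 (interval 2.35 to 3.22). The primer classes overlapped. HLA-F, a chain of restricted expression, was near the floor: it had 24, 27 and 1 reads with T12, T18 and T30, 4, 34 and 1 reads with T18V, T18VN and T18VNN, and 4 reads in A549. In CPM, A549 lay within the HEK293T range (2.66 against 0.277 to 7.53). The level with T12 was 2.74-fold lower in A549, but the interval (0.942 to 10.9) included no difference.

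B2M encodes beta-2 microglobulin, the light chain common to class I molecules. Its level was 42.5, 47.2 and 28.2 CPM with the unanchored primers, 75.5, 68.04 and 54.2 CPM with the anchored ones and 273 CPM in A549. A549 was above all 6 HEK293T libraries, 6.42-fold the HEK293T T12 level (interval 5.29 to 7.84), and the anchored libraries were all above the unanchored ones. B2M was counted on 1 sequence name only, chr15:45003685-45010357 on the plus strand of hg19, so its value does not depend on how reads were placed among HLA haplotype copies.

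The transporter subunits differed from one another. TAP1 stood at 24.6, 30.6 and 42.1 CPM with the unanchored primers, at 15.5, 34.4 and 31.5 CPM with the anchored ones and at 81.1 CPM in A549, above all 6 HEK293T libraries and 3.29-fold the T12 level (interval 2.47 to 4.42). TAP2 stood at 504, 524 and 656 CPM with the unanchored primers, at 649, 662 and 572 CPM with the anchored ones and at 581 CPM in A549. A549 lay within the HEK293T range for TAP2, at 1.15-fold the T12 level (interval 1.06 to 1.25), and the log2 ratio of 0.21 turned to -0.16 when scaled by library total and to -0.07 with TMM (the trimmed mean scaling of edgeR). HEK293T had 15.6 to 41.8 TAP2 reads per TAP1 read, and A549 had 7.17. All 13635 TAP2 reads were on the transcript entries of 5679 and 5732 bases, and the entry of 2540 bases, which has another 3′ end, had 0 reads in every library.

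TAPBP encodes tapasin, which bridges empty class I molecules to the transporter. It had 29, 31, 28, 30, 19 and 35 reads in the 6 HEK293T libraries in the order T12, T18, T30, T18V, T18VN and T18VNN, and 225 in A549. The level was 4.21 to 12.5 CPM in HEK293T and 149 CPM in A549, so A549 was above all 6 and 16.97-fold the T12 level (interval 11.5 to 25.9). This was the highest ratio among the 9 members. The entry of 2003 bases had 0 reads in every library, and the entries of 3505 and 3766 bases held all 397.

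NLRC5, the class I transactivator, had 41, 0, 1, 3, 12 and 28 reads in the same order in HEK293T and 28 in A549. In CPM this was 12.5 with T12, 0 with T18 (where 3 reads would be 0.573 CPM), 0.448 with T30 and 1.06, 2.66 and 7.74 with the anchored primers, against 18.6 in A549. A549 was above all 6 libraries, but only 1.49-fold the T12 level, with an interval (0.890 to 2.47) that included no difference. Against the 5 other HEK293T libraries the log2 ratio was 1.16 to 4.29, so its size depended on which HEK293T library was compared.

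Read against all genes, 5 of the 9 members were at least 2-fold higher in A549 on the log2(CPM + 1) scale, where 31.0% of the 10158 genes with at least 20 reads in either library were. Another 2 (HLA-B and HLA-F) were at least 2-fold lower, against 29.0% of genes, and TAP2 and NLRC5 were neither. The A549 level was above all 6 HEK293T libraries for 6 of 9 members, against 33.8% of genes, and below all 6 for 1 of 9, against 28.7%. The median log2 ratio of the members was 1.45, and that of all genes 0.03. Against HEK293T T30 in place of T12, HLA-B (log2 ratio -0.76) and TAP1 (0.93) did not reach 2-fold. HLA-F did not against T18 (-0.75). Its A549 level (2.66 CPM) was above T30 (0.448), T18V (1.41) and T18VNN (0.277 CPM), where neither library had 20 reads. With 1 library of each line, none of these differences has a replicate check, and line, culture medium and library preparation cannot be told apart.

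**Figure D2:**
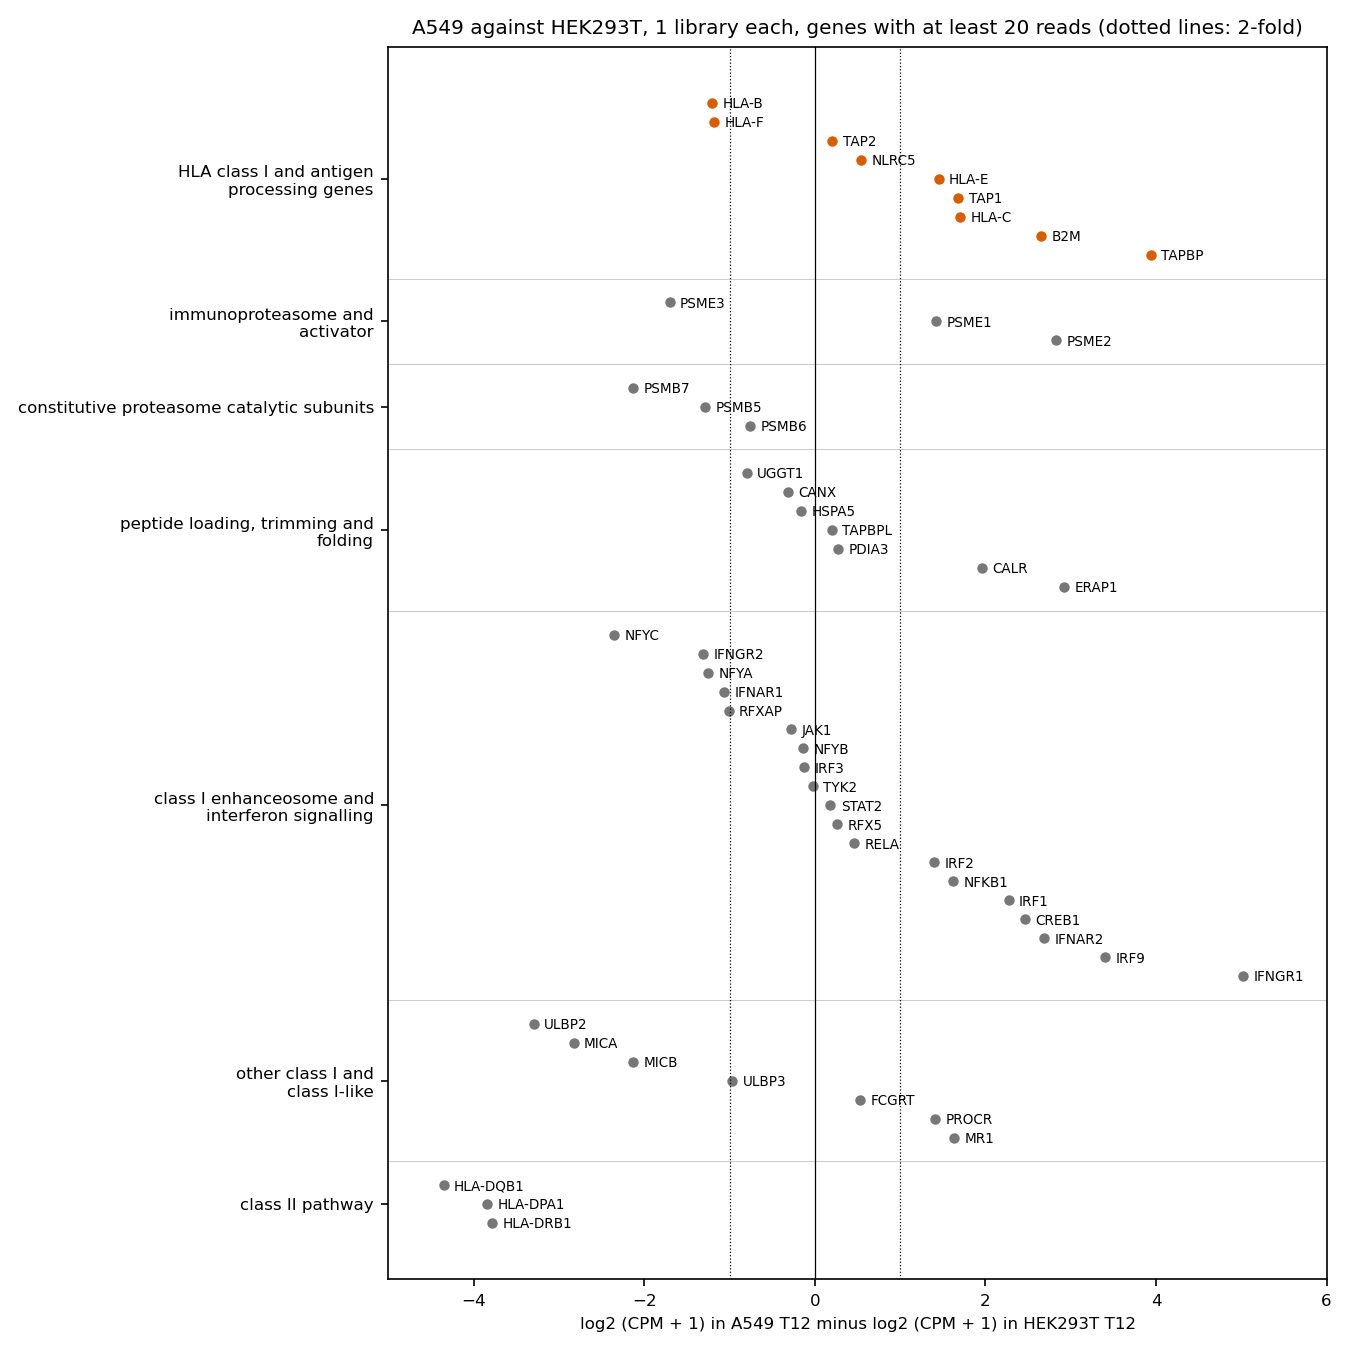
Difference in log2(CPM + 1) between A549 and HEK293T, both with the T12 primer (x axis), for each gene with at least 20 reads in either library, by gene list (y axis), with members in orange. One point is 1 gene and 1 library of each line, the dotted lines mark 2-fold, and the members run from -1.21 (HLA-B) to 3.94 (TAPBP).

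The deposited tables use hg19, where the HLA region has several haplotype copies beside chromosome 6, and 7 of the 9 members had entries on more than 1 sequence name. HLA-B (chr6:31321643-31325022, minus strand) had 92.2 to 96.9% of its HEK293T reads on the copy named cox_hap2 and 0.870 to 2.00% on chromosome 6. In A549, cox_hap2 and chromosome 6 held 0 of 228 HLA-B reads (exact 95% upper limit 1.60%), ssto_hap7 held 83.8% (78.3 to 88.3%) and qbl_hap6 held 14.9% (10.6 to 20.2%). HLA-C (chr6:31236526-31239913, minus strand) had 96.3 to 97.5% of its HEK293T reads on chromosome 6 and the rest almost entirely on cox_hap2. In A549 it had 0 of 2449 reads on chromosome 6 (upper limit 0.151%), 59.8% on mann_hap4 (57.8 to 61.7%) and 35.7% on dbb_hap3 (33.8 to 37.6%). Thus the 6 HEK293T libraries placed the reads of both genes alike with every primer, and the A549 library placed them on other copies. Counted on chromosome 6 alone, HLA-C had 1586 reads in HEK293T T12 and 0 in A549, and its log2 ratio turned from 1.70 to -8.95, so the higher HLA-C in A549 rests on the sum over copies. With the 1 entry per gene that had most reads, HLA-B had 1083 and 0 reads, a log2 ratio of -8.38 in place of -1.21.

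**Figure D3:**
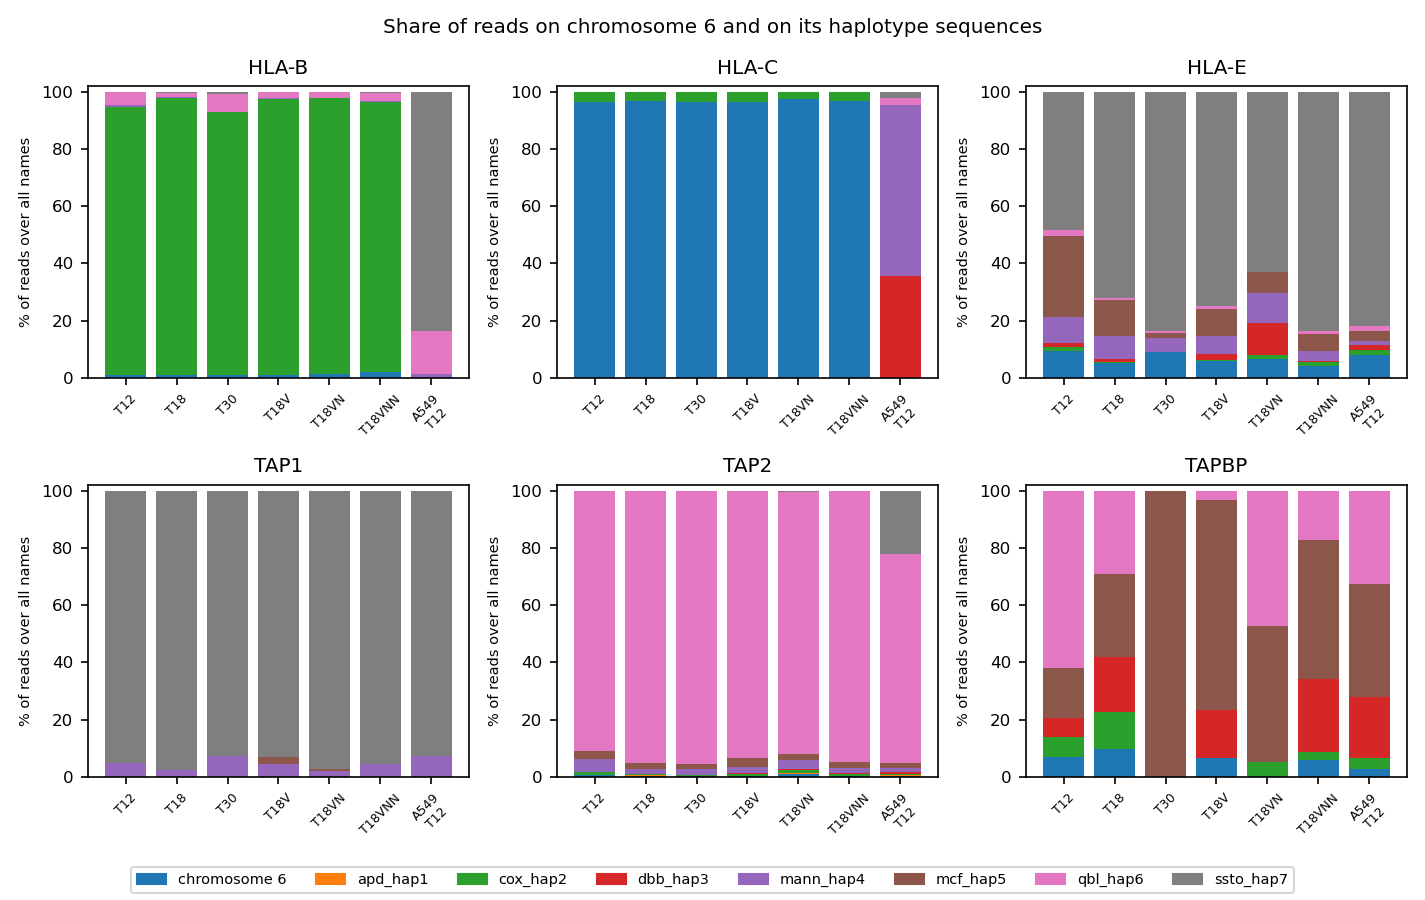
Share of each gene's reads (y axis, percent) on chromosome 6 and on each haplotype sequence of hg19, in the 7 libraries (x axis). For HLA-B and HLA-C the 6 HEK293T bars are alike and the A549 bar is made of other copies, whereas for TAP1 the ssto_hap7 copy holds 92.6 to 97.5% of reads in all 7 libraries.

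The transporter and tapasin genes were divided in other ways. TAP1 (chr6:32812986-32821748, minus strand) had no read on chromosome 6 in any library, and ssto_hap7 held 92.6 to 97.5% of its reads in HEK293T and 92.6% in A549. TAP2 (chr6:32793187-32806600, minus strand) had 91.02 to 95.5% on qbl_hap6 in HEK293T and 73.1% in A549, where ssto_hap7 took 22.1% against at most 0.469% in HEK293T. HLA-E (chr6:30457183-30461982, plus strand) had 48.5 to 83.7% on ssto_hap7 in HEK293T and 81.97% in A549. TAPBP (chr6:33267471-33282164, minus strand) had no steady division: mcf_hap5 held 17.2 to 100% across the HEK293T libraries, each with 35 reads or fewer, and 39.6% in A549. HLA-F (chr6:29691117-29695073, plus strand) had too few reads to divide. HLA-F overlaps the antisense gene HLA-F-AS1 and TAP1 overlaps PSMB8-AS1, and the use of strand in counting is not given in the sources used here. NLRC5 was counted on chr16:57023397-57117436, plus strand, only.

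Per unit of transcript length, by the authors' FPKM (fragments scaled to transcript length and library total) summed over copies, the order in HEK293T T12 was HLA-C (54.8), HLA-B (37.9), TAP2 (15.3), B2M (7.498), HLA-E (5.78), TAP1 (1.45), HLA-F (0.973), TAPBP (0.407) and NLRC5 (0.321). Each neighbour stood in this order in 6 of 6 HEK293T libraries, except HLA-C over HLA-B (4 of 6) and HLA-F over TAPBP (3 of 6), which the libraries therefore did not separate. In A549, HLA-C was again first (139 FPKM), B2M came second (37.4) and TAP2 after it (13.8). HLA-B was next there (12.7), close to HLA-E (12.4), and TAPBP (5.37) stood above TAP1 (3.71). These orders hold for FPKM only. In HEK293T T12, coverage over the first 20 percentiles of transcripts was 0.0403 times that over the last 20, so reads need not scale with length. Division by length may therefore place long mRNAs too low. By CPM, TAP2 (504) was above HLA-C (499) and HLA-B (351) in HEK293T T12, and HLA-E (243) was above HLA-B (151) in A549.

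The 6 HEK293T libraries also allowed the anchored primers to be set against the unanchored ones. None of the 8 members that passed the count filter was called by edgeR's quasi-likelihood test at a Benjamini-Hochberg adjusted p of 0.05, where 168 of 10895 genes (1.54%) were, and DESeq2 also called 0 (it gave no adjusted p for 2 of the 8). At an unadjusted p under 0.05 edgeR had 1 of 8 (HLA-B), against 15.5% of genes. The classes did not overlap for 2 of 8 members, HLA-B and B2M, against 23.6% of genes, and in both the anchored libraries were the higher ones, as for 16.8% of genes. Each primer had 1 library, so primers stood in for replicates and the test measures the spread between primers, not between cultures.

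HLA-B averaged 307 ± 47.1 CPM (SD, n = 3) with unanchored and 564 ± 74.9 CPM (SD, n = 3) with anchored primers, for a log2 fold change of 0.71 (SE 0.28, edgeR adjusted p = 0.244). B2M averaged 39.3 ± 9.89 CPM (SD, n = 3) with unanchored primers and 65.9 ± 10.8 CPM (SD, n = 3) with anchored ones, and its log2 fold change was 0.58 (SE 0.34, edgeR adjusted p = 0.464). These were the 2 largest positive values among the members, and neither passed the threshold. On chromosomes only, the HLA-B value was 1.24 (SE 0.74), again not called. HLA-C averaged 414 ± 76.9 CPM (SD, n = 3) with unanchored primers and 549.9 ± 85.7 CPM (SD, n = 3) with anchored ones, with a log2 difference of 0.24 (SE 0.28). TAP2 averaged 561 ± 82.7 CPM (SD, n = 3) with unanchored primers and 628 ± 48.6 CPM (SD, n = 3) with anchored ones, with a log2 difference of -0.02 (SE 0.27): the log2 values use TMM scaling and the CPM does not. TAP1 (-0.43, SE 0.44), TAPBP (-0.33, SE 0.65) and HLA-F (-0.63, SE 1.18) had negative log2 fold changes, and HLA-E was at 0.00063 (SE 0.36), so 4 of 8 were positive and 4 negative. NLRC5 did not pass the filter.

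**Figure D4:**
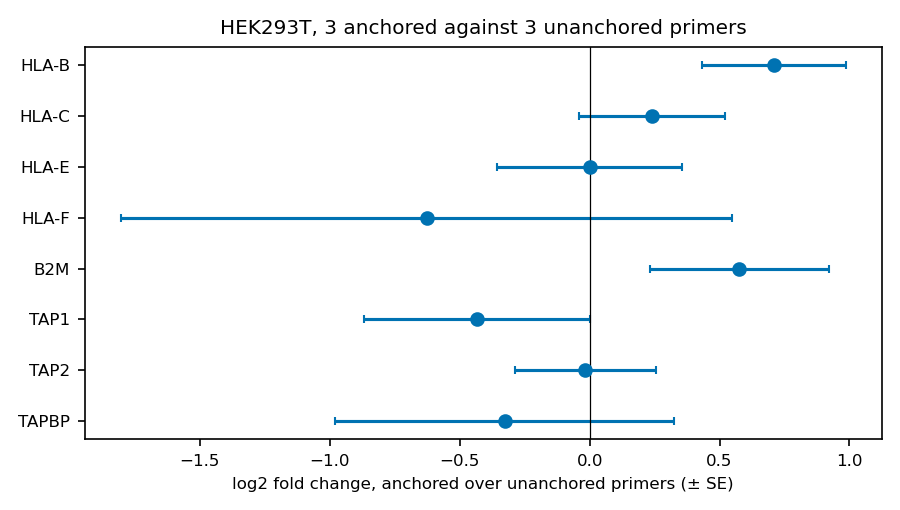
Log2 fold change of the 8 tested members between 3 anchored and 3 unanchored HEK293T primers (x axis, positive where anchored is higher), from edgeR, with bars of 1 standard error. No member passed the adjusted threshold, and HLA-B (0.71) and B2M (0.58) have the highest values.

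Other genes of the pathway were counted in 6 lists of 65 genes, of which 42 had enough reads for the cell line comparison: 13 were at least 2-fold higher in A549, 14 lower and 15 neither, beside 31.0% of all genes higher and 29.0% lower. The list's counts were near the share of all genes in both directions. In the immunoproteasome and its activator, PSME1 (132 CPM in HEK293T T12 and 356 CPM in A549) and PSME2 (20.0 and 148 CPM), the subunits of the interferon-inducible activator, were higher in A549, and PSME3 (1579 and 484 CPM), subunit of the nuclear activator, was lower. PSMB8 and PSMB9, catalytic subunits of the immunoproteasome, had 11 reads each in the A549 library, where HEK293T T12 held none, which is at least 8.02-fold above a floor of 3 reads. PSMB10, also a catalytic subunit, had 14 reads in each of these libraries (4.25 CPM in HEK293T T12 and 9.30 CPM in A549). Its A549 level lay within the HEK293T range (0 to 9.40 CPM). PSMB8, PSMB9 and PSMB10 were under the 20 reads needed to be counted. Of the 3 constitutive catalytic subunits that PSMB8, PSMB9 and PSMB10 replace, PSMB5 (2011 and 824 CPM) and PSMB7 (169.8 and 37.9 CPM) were lower in A549, and PSMB6 (242 and 142 CPM) was under 2-fold.

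Among 7 loading, trimming and folding genes with enough reads, 2 were higher, 0 lower and 5 neither, beside 31.0% of all genes higher and 29.0% lower. Calreticulin (CALR), which holds new heavy chains in the peptide loading complex, was at 108 CPM in HEK293T T12 and 422 CPM in A549, and the trimming peptidase ERAP1 at 7.29 and 61.8 CPM. The chaperones CANX (693 and 557 CPM) and HSPA5 (818 and 729.5 CPM) were among the 5. So was UGGT1, which had more reads than CALR over all libraries and a log2 ratio of -0.80. Of the 7 genes, 3 had an A549 level above all 6 HEK293T libraries, and 2 (CANX and UGGT1) had one below them. Of 19 genes of the class I promoter complex and interferon signalling, 7 were higher, 5 lower and 7 neither, with a median log2 ratio of 0.18. Again 31.0% of all genes were higher and 29.0% lower. The interferon-response gene IRF1 (17.9 and 90.4 CPM) was higher in A549. The factor NFKB1 (23.4 and 73.7 CPM) was higher than in HEK293T T12, but its A549 level lay within the range of the 6 HEK293T libraries (23.4 to 103 CPM). The NF-Y subunits NFYC (173 and 33.2 CPM) and NFYA (82.02 and 33.9 CPM) were lower, and the kinase JAK1 (104 and 85.7 CPM) was neither. In the primer comparison, 0 of 45 tested genes of the 6 lists were called by edgeR and 13 had an unadjusted p under 0.05, beside the 15.5% of all genes given above. DESeq2 called 3 of the 45 (PSME2, IRF3 and IFNAR2) and gave no adjusted p for 11, where it called 608 of all 10895 genes.

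The genes whose pattern over the 7 libraries was most like that of a member were found among 6807 genes with a mean of at least 50 reads, as the smallest root mean square difference of centred log2(CPM + 1). For B2M these were MSN (0.18), NHSL3 (0.21) and ATP2A2 (0.22). MSN, which links the cell membrane to actin, ran from 104 to 320.0 CPM in HEK293T and reached 965 CPM in A549. For HLA-B they were TATDN2, PLAT and HNRNPDL, each at 0.12, and for TAP1 they were TMED2 (0.14), ARF5 (0.17) and EPHB2 (0.17). PLAT, tissue plasminogen activator, stood at 28.2 to 80.8 CPM in HEK293T and 18.6 CPM in A549. The points share the 7 libraries and their depth, and no test was made.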

How the data were processed

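Per the submitters' processing notes, reads were handled with FastQC 0.11.8, cutadapt 2.10, Trimmomatic 0.39, HISAT2 2.2.1 and SAMtools on GRCh37/hg19. The authors deposited read counts per RefSeq transcript, in the layout of RSeQC's FPKM_count. Those tables, as deposited, also give FPM, a signal scaled to the library total, and FPKM, further divided by transcript length. Gene body coverage was deposited by the authors as a signal over percentiles. The handling of reads with several matches and of strand is not given in the sources used here, so sums over haplotype copies could repeat reads.

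Of 61177 transcript entries, 60133 (98.3%) were matched to symbols, and 1044 were left out. Counts of a gene were summed over sequence names, with the entry of most reads on each, and CPM used the sum over 26625 genes. Members, lists, markers and motifs were chosen with earlier results of these data known. The named genes were all members and at most 4 of each list with most reads; PSMB8, PSMB9, ERAP1, IRF1 and the genes called by DESeq2 were named after their values were seen. Another 2 listed genes are not reported here, and the list counts leave them out.

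Anchored and unanchored libraries were compared with edgeR 4.0.16 in R 4.3.3 (filterByExpr, TMM, quasi-likelihood F-test, Benjamini-Hochberg adjustment over 10895 genes), tested on simulated data first. DESeq2 1.42.0, other scalings and filters, other counting of copies and leaving out each library were alternatives. A549 and HEK293T were compared with no test, by a ratio with a 95% exact binomial interval and a 2-fold threshold on log2(CPM + 1) with a pseudocount of 1 and at least 20 reads in either library. The labels do not say whether the libraries came from separate cultures, and the labels' protocols state different amounts of input RNA in different places. The 2 other T12 libraries, replicate 2 of HEK293T and replicate 1 of A549, have poly(T) lengths only and were not used. mRNA alignments used Biopython 1.88.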

Additional observations from a re-analysis of the deposited data

How the results depend on the processing

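No member passed the adjusted threshold in the primer comparison under any alternative run, and HLA-B, HLA-C, B2M, TAP1, TAPBP and HLA-F had the same sign of log2 fold change under every alternative that gave them one. The count of genes called, 168, was 608 with DESeq2 (279 higher and 329 lower with anchored primers, against 97 and 71) and 558 without a filter, and 46 to 112 when 1 library was left out (107 without T12, 85 without T18, 54 without T30, 63 without T18V, 46 without T18VNN). Without scaling beyond gene reads, the median of all genes moved to 0.17 and the split to 155 higher and 58 lower. HLA-E, near 0, turned to -0.042 with DESeq2 and with RLE scaling, -0.0087 without a filter and -0.52 on chromosomes only, and ran from -0.18 to 0.33 when 1 library was left out. TAP2 turned to 0.16 without scaling and ran from -0.12 to 0.13 when 1 library was left out. The cause was not tested.

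In the cell line comparison the count past 2-fold, 6103, was 2891 with at least 100 reads, where fewer genes were tested. Scaling by library total moved the median of all genes from 0.03 to -0.26 and the split from 3153 higher and 2950 lower to 2247 and 3067, and TMM scaling moved them to -0.24 and 2709 and 3452. HLA-C turned to -8.93 with 1 entry per gene and to -8.95 on chromosomes only, both by leaving out the copies that hold its A549 reads. Against HEK293T T30 in place of T12, HLA-B (-0.76) and TAP1 (0.93) no longer reached 2-fold. NLRC5 reached it against each of the 5 other HEK293T libraries (log2 ratios 1.16 to 4.29), and HLA-F did not against T18 (-0.75), with a pseudocount of 5 (-0.68) or by library total (-0.74). Against T30, T18V and T18VNN, where HLA-F had under 20 reads in both libraries, its A549 level was the higher one. No paired analysis was possible because the T12 library with gene counts is replicate 1 for HEK293T and replicate 2 for A549, and the other primers have 1 library each, with no replicate number in the labels. Depth limits HLA-F, NLRC5 and TAPBP most, with 0 to 41 reads in any HEK293T library.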

Other observations

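Class II genes, whose products present peptides from outside the cell to helper T cells, had low counts in HEK293T and were absent or nearly so from the A549 library. The 3 with at least 20 reads in either library passed this filter through HEK293T T12 alone and had 0 reads in A549. All 3 were at least 2-fold lower in A549, as were 29.0% of all genes counted, but the filter favours genes high in 1 line. The count is therefore no test of the list. HLA-DQB1 had 64 reads in HEK293T T12 (19.4 CPM), at least 9.75-fold more than the floor of 3 reads in A549. HLA-DPA1 (13.4 CPM) and HLA-DRB1 (12.8 CPM) were at least 6.71-fold and 6.40-fold higher in HEK293T in the same way. HLA-DPB1 had 15 reads in HEK293T T12 and 0 in A549. HLA-DMB, which edits class II peptides, went the other way, with 1 read in HEK293T T12 and 14 in A549. These were under the 20 reads needed to be counted, and HLA-DMB was named after its values were seen.

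Of 7 class I-like genes with enough reads, 2 were higher in A549, 3 lower and 2 neither, beside 31.0% of all genes higher and 29.0% lower. The stress ligand MICA, recognised by the NKG2D receptor of natural killer cells, was at 39.2 CPM in HEK293T T12 and 4.65 CPM in A549, and ULBP3, another NKG2D ligand, at 145 and 73.7 CPM. The protein C receptor PROCR was at 14.9 and 41.2 CPM, and the neonatal Fc receptor FCGRT, which also pairs with beta-2 microglobulin, at 40.1 and 58.5 CPM. Neither ULBP3 nor FCGRT reached 2-fold. Their A549 levels lay within the HEK293T ranges (61.7 to 214 CPM for ULBP3 and 19.7 to 79.3 CPM for FCGRT). MICA ran from 5.64 to 39.2 CPM across the 6 HEK293T libraries, so the size of its difference depended on which HEK293T library was compared. With 1 library per primer, primer and library cannot be told apart.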
